A study of Homo sapiens with 9 samples.

Results

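The genes described here handle cellular iron: TFRC, TF and SLC11A2 for uptake, SLC40A1 and CP for export, FTH1 and FTL for storage, HMOX1 for heme breakdown, and IREB2 and ACO1 for regulation. Their probes were found by RefSeq symbol, with no threshold on a measured value, but the list itself was drawn up with earlier results of these data known. All 10 genes were on the array, with 16 of the 58201 probes and 10 of the 47753 gene names tested. RNA came from OEC-M1 cells, a cell line of head and neck squamous cell carcinoma (HNSCC), grown in RPMI with serum. Every group was kept at 1% O2 for 18 h, with 72 h of transfection in the labels. The si-Control group received non-targeting siRNA, the GATA3 knockdown group GATA3 siRNA and the HIF-1α knockdown group HIF-1α siRNA, with 3 arrays each. All 3 groups were hypoxic, so no array shows the genes at normal oxygen. The supplementary legend names a single siRNA for GATA3 and for HIF-1α, so that what each sequence does by itself and what the loss of its target does cannot be told apart. Nothing in the labels says that the arrays of a group came from separate cultures, and P values then measure the spread between these arrays only.

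Iron enters most cells as transferrin (TF), which binds the transferrin receptor (TFRC) and is taken up into endosomes, from which the transporter SLC11A2 (DMT1) moves the metal into the cytosol. Iron that is not used is kept inside ferritin, a shell of heavy (FTH1) and light (FTL) chains, or leaves through ferroportin (SLC40A1), with ceruloplasmin (CP) oxidizing it outside the cell. HMOX1 releases iron from heme. The iron regulatory proteins, encoded by ACO1 and IREB2, bind stem-loops called iron-responsive elements. When iron is scarce they protect TFRC mRNA and block the translation of ferritin mRNA. Their control of ferritin therefore lies beyond the level of mRNA, while that of TFRC acts on the amount of its mRNA. Hypoxia-inducible factors, of which HIF-1α is the oxygen-regulated subunit, are known to act on TFRC and HMOX1 in other cells.

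The promoters and a stretch of 1 iron-responsive element are shown because TFRC, ACO1, FTL and IREB2 are among the genes called in the comparisons and because the knocked-down proteins are DNA-binding factors. SLC40A1 was also called, between the knockdowns, and its promoter is not printed. RefSeq promoter windows (GRCh38.p14, 250 bases before each start) were found for 7 of the 10 genes, in 12 windows. No window was found for FTH1, HMOX1 or CP. In the sequences printed, capitals mark ACGTG or GCGTG, the core letters that HIF-1 binds, on either strand, so that a match on the other strand reads CACGT or CACGC. The stretches are chr3:196082091-196082210 (minus strand) for TFRC, chr9:32384523-32384642 (plus strand) for ACO1, chr19:48965059-48965308 (plus strand) for FTL and chr15:78437966-78438215 (plus strand) for the first start of IREB2, and each ends at the base before the start.
TFRC promoter: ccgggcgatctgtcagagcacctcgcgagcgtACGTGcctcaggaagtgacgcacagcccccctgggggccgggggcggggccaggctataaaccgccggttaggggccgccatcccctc
ACO1 promoter: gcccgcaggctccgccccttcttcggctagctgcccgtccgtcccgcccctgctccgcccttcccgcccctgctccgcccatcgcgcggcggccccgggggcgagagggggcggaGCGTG
FTL promoter: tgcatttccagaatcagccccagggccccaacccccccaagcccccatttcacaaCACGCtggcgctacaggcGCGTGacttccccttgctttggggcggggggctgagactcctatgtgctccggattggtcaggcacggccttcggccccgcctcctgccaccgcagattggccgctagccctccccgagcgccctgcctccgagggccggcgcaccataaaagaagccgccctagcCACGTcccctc
IREB2 promoter: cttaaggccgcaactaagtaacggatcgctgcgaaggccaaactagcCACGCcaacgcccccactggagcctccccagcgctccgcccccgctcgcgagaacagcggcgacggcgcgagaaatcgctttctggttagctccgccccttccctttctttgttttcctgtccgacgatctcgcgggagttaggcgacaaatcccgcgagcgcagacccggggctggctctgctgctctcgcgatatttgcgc
The core letters were in 6 of the 12 windows, and 43.2% of all 35116 promoter windows hold them. There was 1 match each for TFRC, ACO1 and the first start of IREB2, and 3 for FTL. SLC11A2, whose brighter probe was not called in any comparison, had 3 matches in 1 of its windows and 1 in another. The SLC40A1 window, the window of the second start of IREB2 and both TF windows held no match. Only windows with a match are printed, so they do not stand for all the called genes. AGATAA or TGATAA, which GATA factors bind, was found once, in 1 of the 4 SLC11A2 windows, beside 14.6% of all windows. TGACNNNGC, the antioxidant response element that NRF2 binds, was in none of the 12 windows, beside 10.9% of all. The promoters of FTH1, HMOX1 and CP were not searched for any of these letters. These matches describe letters in a window and say nothing of binding in these cells.

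In the 50 bases after the start, the letters CAGTG, the loop of an iron-responsive element, were found on the gene's strand in FTL. None of the other windows of these genes held them, beside 6.48% of all windows. FTH1, HMOX1 and CP had no window, and the rest of each transcript was not searched. The other genes may therefore hold such elements elsewhere. The FTL stretch lies at chr19:48965335-48965358, inside the transcript, and capitals mark the loop with the base after it.
FTL iron-responsive element: ctcttgcttcaaCAGTGTttggac
The printed bases stop where the window of 50 bases ends, so they may not hold the whole element. Through this element, iron regulatory proteins hold back translation of FTL mRNA, a step that these arrays do not measure.

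Levels are given as log2 intensity after background correction and quantile normalization, and differences as log2 fold change. A gene was counted as changed at an unadjusted P under 0.05 in limma, since the supplementary methods give a threshold of 0.05 and name no adjustment, and the adjusted P (Benjamini-Hochberg over all genes tested) stands beside it. None of the 10 genes passed an adjusted P of 0.05 in any comparison, beside 0% of all genes against si-Control and 0.00422% between the knockdowns, so that each change described here passed the unadjusted threshold only. A 95% interval with 0 inside it goes with a difference that missed the threshold. GATA3 itself was lower in GATA3 knockdown by -1.27 on the log2 scale (SE 0.34, 95% interval -2.01 to -0.52) and HIF1A was lower in HIF-1α knockdown by -2.32 (SE 0.35, 95% interval -3.1 to -1.54), with no overlap between arrays in either case. The median spot intensity of an array ran from 992.5 to 3560, and the 2 dimmest arrays were si-Control replicate 3 and GATA3 knockdown replicate 3. In the headers, arrays with the same replicate number share a slide. Of the 9 squamous epithelial markers, 7 (GATA3 knockdown) or 8 (the other groups) stood well above background on each of the 3 arrays, and KRT5 on none. Hepatocyte markers, relevant to TF and CP, did so for 4 of 5 genes in si-Control and HIF-1α knockdown. In GATA3 knockdown it was 2 of 5. Their summed log2 levels ran from 13.98 to 14.6 in si-Control, 14.46 to 14.6 after HIF-1α knockdown and 13.82 to 14.39 after GATA3 knockdown. Leukocyte and macrophage markers passed the same mark for 4 of 4 genes on the array in si-Control and HIF-1α knockdown and 2 in GATA3 knockdown. Erythroid markers passed it for 4 of 4 in every group. From 74.3% to 88.5% of all spots on an array stood well above background, so these counts do not single out a cell type. The part of these markers in any result was not tested. In RNA from many cells, fewer cells that express a gene and less RNA per cell cannot be told apart.

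**Figure D1:**
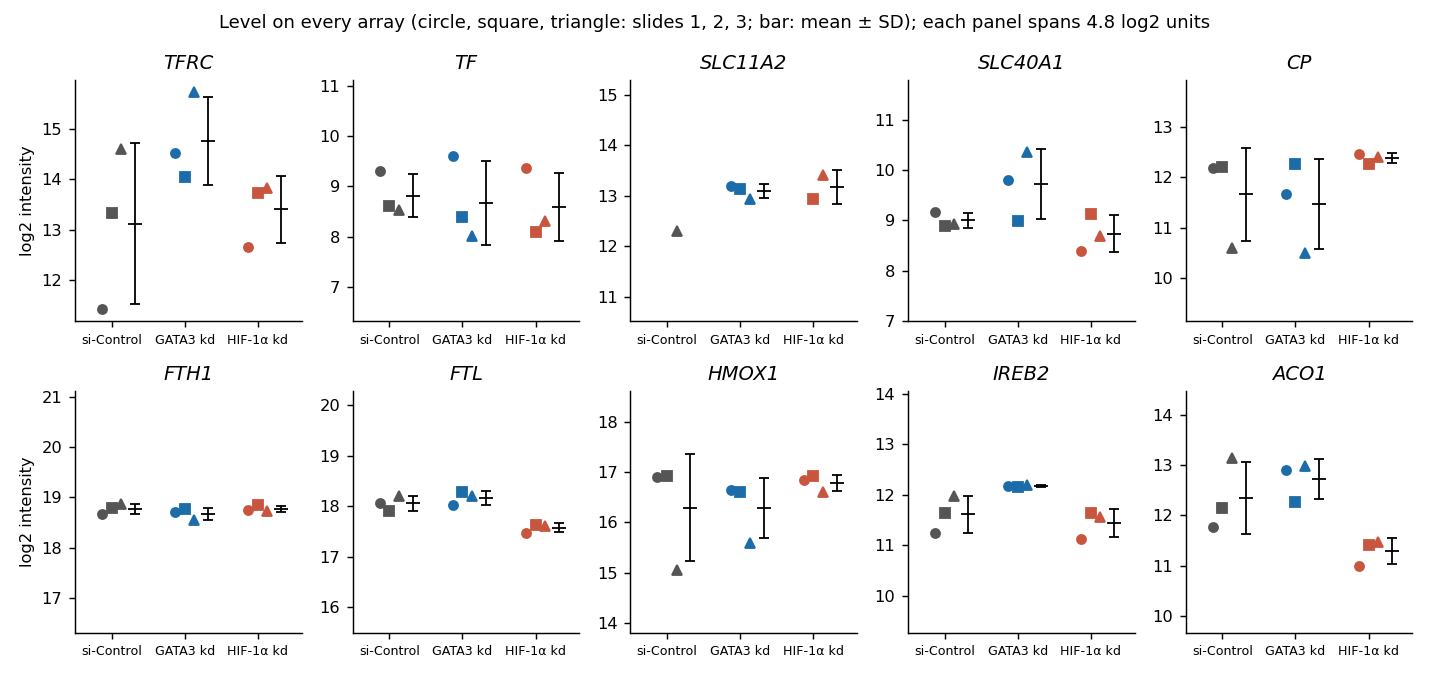
Log2 intensity of each gene's brightest probe (vertical axis, 4.8 log2 units in every panel) on each array, by group (horizontal axis, kd for knockdown); circles, squares and triangles are slides 1, 2 and 3, and the bars are the mean ± SD of the arrays. FTL and ACO1 sit lower on all 3 HIF-1α knockdown arrays than on any other array, and TFRC runs from 11.42 to 14.6 within si-Control alone.

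TFRC was the only one of the 10 genes that changed after GATA3 knockdown, and it rose. Over all genes, 2.97% were called in that comparison, 1.59% as higher, and 1 call among 10 genes is not read as a property of the list. The TFRC probe (A_23_P212617) read 11.42, 13.32 and 14.6 on the 3 si-Control arrays. It read 14.52, 14.05 and 15.73 after GATA3 knockdown and 12.65, 13.73 and 13.83 after HIF-1α knockdown. The si-Control readings were the most scattered, and the highest of them, on replicate 3, overlapped the GATA3 knockdown readings. The rise was 1.65 on the log2 scale, or 3.13-fold (SE 0.74, 95% interval 0 to 3.29, adjusted P = 1 from limma), with a lower bound that lies just above 0 before rounding, and it was seen on all 3 slides, by 3.1, 0.72 and 1.12. TFRC is printed 10 times on every array, and the SD between the spots of an array was from 0.09 to 0.31.

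The TFRC call lay close to the threshold and was kept in only 2 of the 9 fits that left out 1 array. Without si-Control replicate 1, the lowest si-Control reading, the difference was 0.8 and missed the threshold. Without GATA3 knockdown replicate 3 it was 1.17 and missed it as well. The call was also lost without si-Control replicate 2 (1.75) or GATA3 knockdown replicate 1 (1.77). It was lost without any HIF-1α knockdown array too, where the difference stayed 1.65. With the slide as a block, the same 1.65 passed, and with array brightness as a covariate the difference was 1.6 and passed. After HIF-1α knockdown, the TFRC difference from si-Control was 0.28 (95% interval -1.36 to 1.93), and it became 1.32, which passed, with array brightness as a covariate. GATA3 knockdown set directly against HIF-1α knockdown gave 1.36 (95% interval -0.28 to 3.01) with no overlap between the groups. That difference passed with the slide block and was 0.28 with brightness as a covariate.

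TF was well above background on every array but 1 of GATA3 knockdown and did not pass in any comparison. Its 9 readings lay between 8.01 and 9.61, and the 3 groups overlapped throughout. SLC11A2 was measured by 2 probes. The brighter one was marked non-uniform on si-Control replicates 1 and 2 and on HIF-1α knockdown replicate 1, which the fit drops, so that its si-Control value of 12.3 is a single array and its differences of 0.8 after GATA3 knockdown and 0.87 after HIF-1α knockdown were not called. With the marked spots kept, they were 0.06 and 0.37. With the mean of both probes, the difference after GATA3 knockdown was 1.47 and passed, while TFRC just missed the threshold, but that mean mixes different probes on the arrays where 1 is missing. The second SLC11A2 probe was measured on every array. It read 9.9, 9.89 and 10.71 in si-Control, 10.96, 10.11 and 11.03 after GATA3 knockdown, and 10.06, 9.8 and 9.91 after HIF-1α knockdown. The GATA3 knockdown arrays all lay above the HIF-1α knockdown arrays on this probe, by 0.78 (SE 0.33, 95% interval 0.05 to 1.5, adjusted P = 0.395), whereas the brighter probe gave -0.08 over the arrays that had it.

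Among the genes of export, SLC40A1 was higher after GATA3 knockdown than after HIF-1α knockdown. SLC40A1 encodes ferroportin, the known exporter of iron from cells. Its probe read 9.17, 8.9 and 8.93 in si-Control, 9.8, 8.99 and 10.36 after GATA3 knockdown and 8.4, 9.12 and 8.7 after HIF-1α knockdown. The second GATA3 knockdown array lay below the second HIF-1α knockdown array, so the groups overlapped. The direct difference was 0.98, or 1.97-fold (SE 0.35, 95% interval 0.2 to 1.76, adjusted P = 0.384), from 1.4, -0.13 and 1.66 on the 3 slides. That call was lost without GATA3 knockdown replicate 1, GATA3 knockdown replicate 3 or HIF-1α knockdown replicate 1, with a lowest value of 0.66, and with array brightness as a covariate (0.76). Against si-Control neither difference was called, at 0.72 (95% interval -0.07 to 1.5) for GATA3 knockdown and -0.26 (95% interval -1.04 to 0.52) for HIF-1α knockdown.

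CP, the copper-containing ferroxidase, was not called, and its probes disagreed. The brighter probe read 12.18, 12.2 and 10.6 in si-Control, 11.67, 12.26 and 10.49 after GATA3 knockdown, and 12.46, 12.27 and 12.41 after HIF-1α knockdown. Both low readings came from the 2 dimmest arrays. The HIF-1α knockdown arrays lay above all si-Control arrays on this probe, with a difference of 0.72 (95% interval -0.42 to 1.86) that was 0.08 with array brightness as a covariate. On the other CP probe, the same difference was -0.29 (95% interval -1.79 to 1.21), with overlapping groups.

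Of the ferritin chains, FTL fell after HIF-1α knockdown on all 3 of its probes, and none of the 3 FTH1 probes was called in any comparison. Both genes have many processed pseudogenes, and whether the probes also bind their transcripts was not tested. On the brightest FTL probe (A_23_P50504), the si-Control arrays read 18.06, 17.91 and 18.21. The GATA3 knockdown arrays read 18.02, 18.29 and 18.21, and the HIF-1α knockdown arrays 17.46, 17.63 and 17.61. Every HIF-1α knockdown array lay below every other array, and the si-Control and GATA3 knockdown arrays overlapped. FTL fell by 0.50 after HIF-1α knockdown (SE 0.21, 95% interval -0.97 to -0.02, adjusted P = 0.823), or 1.41-fold, and the differences on the 3 slides were -0.6, -0.28 and -0.6.

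The other FTL probes gave larger differences in the same direction. The second probe (A_32_P155247) read 17.24, 17 and 17.64 in si-Control and 16.36, 16.36 and 16.6 after HIF-1α knockdown, a difference of -0.85 (SE 0.24, 95% interval -1.38 to -0.32, adjusted P = 0.762). On the dimmest probe (A_19_P00812340) the readings were 14.91, 14.82 and 16.03 in si-Control and 14.03, 14.11 and 14.25 after HIF-1α knockdown, a difference of -1.12 (SE 0.34, 95% interval -1.88 to -0.36, adjusted P = 0.828). On each of the 3 probes the HIF-1α knockdown arrays did not overlap either of the other groups. The brightest probe kept its call in 2 of the 9 fits that left out 1 array, those without GATA3 knockdown replicate 1 or 2, while its value stayed between -0.57 and -0.42. The calls lost were those without any si-Control or HIF-1α knockdown array and without GATA3 knockdown replicate 3.

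**Figure D2:**
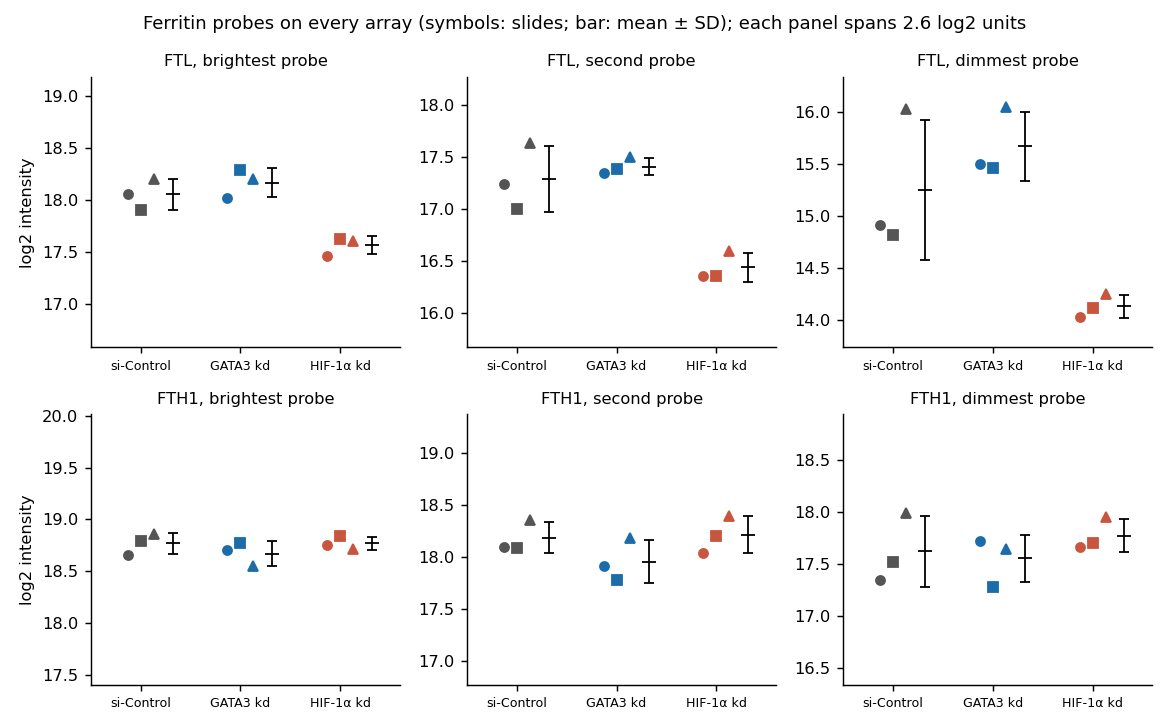
Log2 intensity (vertical axis, 2.6 log2 units in every panel) of the 3 FTL probes (top) and the 3 FTH1 probes (bottom) on each array by group (kd for knockdown); symbols are slides 1, 2 and 3 and bars are the mean ± SD of 3 arrays. The HIF-1α knockdown arrays stand below the other arrays on all 3 FTL probes, and the groups overlap on the FTH1 probes.

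FTH1, the chain with the ferroxidase site of ferritin, read between 18.55 and 18.86 on its brightest probe over all 9 arrays. Its differences were -0.1 after GATA3 knockdown (95% interval -0.55 to 0.36) and 0 after HIF-1α knockdown (95% interval -0.46 to 0.45). That probe ranks 22 of 58201 by mean intensity and the brightest FTL probe 453. At such ranks quantile normalization leaves a probe little room to move. With each array scaled to its 75th percentile instead, the FTH1 difference after HIF-1α knockdown was -0.5, which was not called, and the FTL difference -0.9, which was, while the median over all genes moved from -0.01 to -0.1. FTH1 was also lower, and not called, with the scanner's processed signal (-0.47) and in the authors' log2 table (-0.46). The FTL differences there were -0.89 and -0.88, both called. A shift of a whole array leaves a ratio within that array as it is, whereas quantile normalization can change it. The log2 ratio of FTL to FTH1 averaged -0.71 in si-Control, -0.5 after GATA3 knockdown and -1.2 after HIF-1α knockdown. The 3 HIF-1α knockdown arrays, at -1.3, -1.2 and -1.11, did not overlap the si-Control arrays, at -0.6, -0.88 and -0.65. The difference of -0.49 had an exact two-sided permutation p of 0.1, the smallest that 3 arrays against 3 allow (0.15 adjusted over 3 comparisons). It was -0.4, also without overlap, after scaling to the 75th percentile. The ratio was not part of the design and uses only the brightest probe of each gene. In the main fit, FTL had already been seen to fall without overlap while FTH1 hardly moved, so this p adds no separate evidence.

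HMOX1, the inducible heme oxygenase, was not called in any comparison. It read 16.89, 16.92 and 15.06 in si-Control, 16.65, 16.61 and 15.59 after GATA3 knockdown, and 16.84, 16.91 and 16.6 after HIF-1α knockdown. All groups overlapped. The 2 lowest readings were again those of the 2 dimmest arrays, and the SD between its 10 spots per array was from 0.08 to 0.26. The difference after HIF-1α knockdown was 0.5 (95% interval -0.6 to 1.6), and with array brightness as a covariate it was -0.09. After GATA3 knockdown it was 0 (95% interval -1.1 to 1.1).

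**Figure D3:**
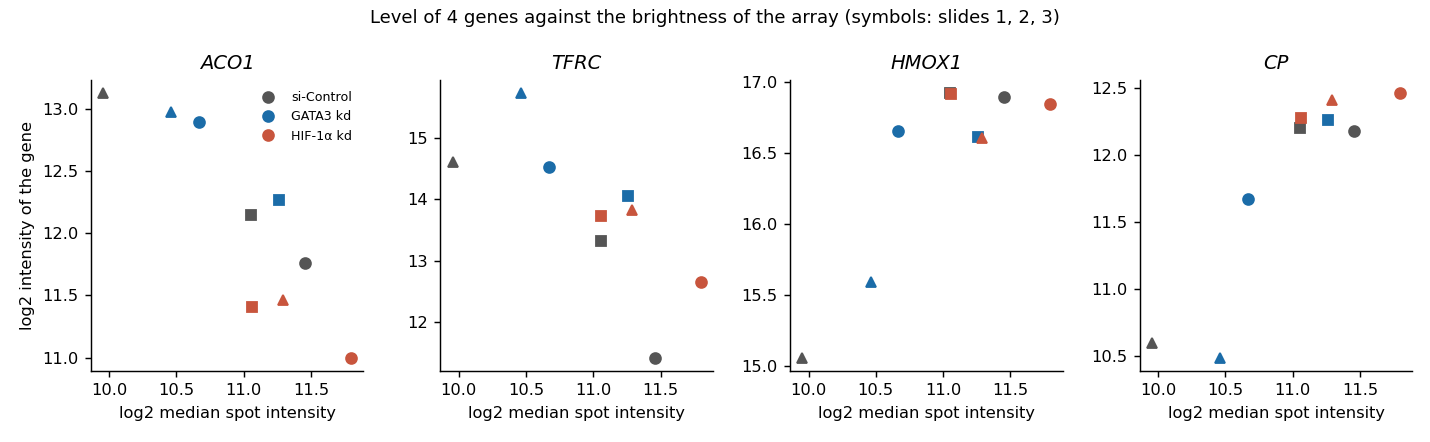
Log2 intensity of ACO1, TFRC, HMOX1 and CP on each array (vertical axes) against the log2 median spot intensity of that array (horizontal axes); colours are the 3 groups (kd for knockdown) and symbols slides 1, 2 and 3. The dimmest arrays carry the highest ACO1 readings, 13.13 and 12.98, and the lowest HMOX1 and CP readings.

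ACO1 gave the largest change among the regulators, and it fell after HIF-1α knockdown. ACO1 encodes the cytosolic aconitase that becomes iron regulatory protein 1 when it lacks its iron-sulfur cluster. Over all genes, 5.23% were called in that comparison, and of the 10 iron genes 2 were called, ACO1 and FTL, both lower, beside 3.28% of all genes called lower. The ACO1 probe (A_23_P9415) read 11.76, 12.15 and 13.13 in si-Control. It read 12.9, 12.27 and 12.98 after GATA3 knockdown and 11, 11.41 and 11.46 after HIF-1α knockdown, below every other array. ACO1 fell by 1.05 on the log2 scale, or 2.08-fold (SE 0.37, 95% interval -1.87 to -0.24, adjusted P = 0.823), by -0.76, -0.74 and -1.66 on the 3 slides. Leaving out si-Control replicate 3 (-0.66) or HIF-1α knockdown replicate 1 (-0.91) ended the call, and the other 7 fits that left out 1 array kept the call. With array brightness as a covariate it was -0.57 and still called. After GATA3 knockdown, the ACO1 difference from si-Control was 0.37 (95% interval -0.45 to 1.19), with overlapping groups.

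IREB2, which encodes iron regulatory protein 2, was higher after GATA3 knockdown than after HIF-1α knockdown. The GATA3 knockdown arrays read 12.17, 12.16 and 12.19, a spread far smaller than in the other groups. The si-Control arrays read 11.25, 11.63 and 11.97 and the HIF-1α knockdown arrays 11.13, 11.64 and 11.55, all below. The direct difference was 0.73, or 1.66-fold (SE 0.26, 95% interval 0.16 to 1.3, adjusted P = 0.382), and it was 0.58 and no longer called without HIF-1α knockdown replicate 1. Against si-Control, the GATA3 knockdown arrays did not overlap but the difference of 0.56 missed the threshold (95% interval -0.01 to 1.13), and it passed with the slide as a block. After HIF-1α knockdown the difference was -0.17 (95% interval -0.75 to 0.4).

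**Figure D4:**
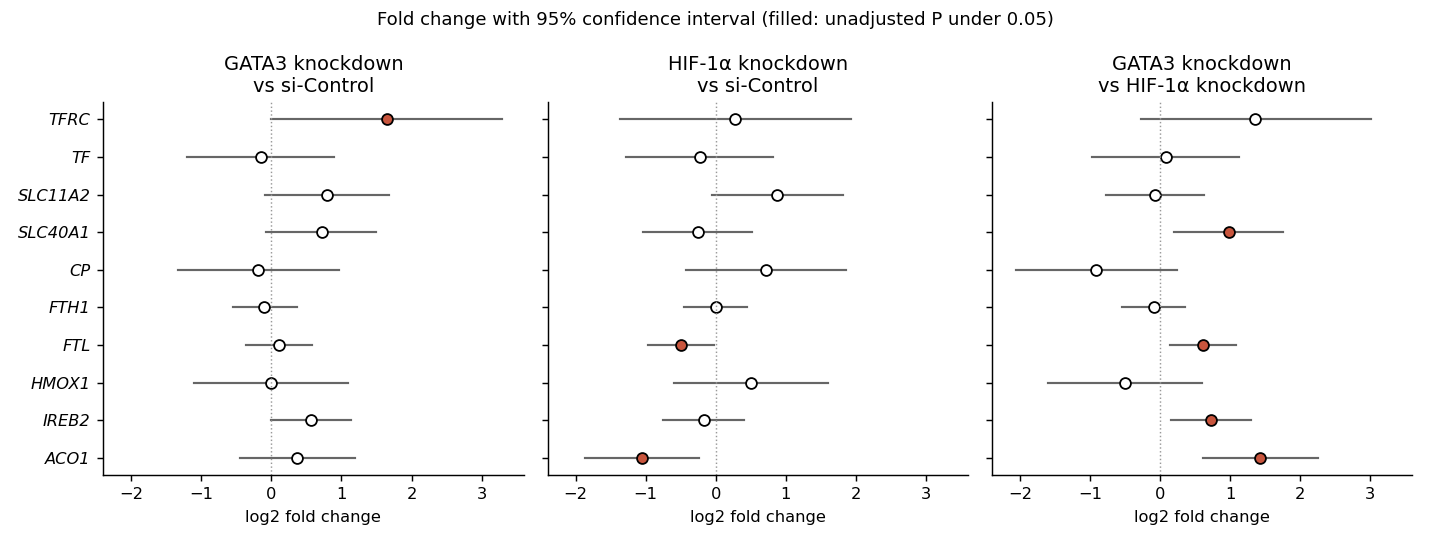
Log2 fold change (horizontal axes) of the 10 genes in the 3 comparisons, with 95% confidence intervals from limma; filled points have an unadjusted P under 0.05. TFRC is filled in the GATA3 knockdown comparison, FTL and ACO1 in the HIF-1α knockdown comparison, and SLC40A1, FTL, IREB2 and ACO1 between the knockdowns.

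Set directly against each other, the knockdowns differed in 4 of the 10 genes, ACO1, FTL, IREB2 and SLC40A1, and each was higher after GATA3 knockdown. Over all genes, 12% were called in that comparison, 6.93% higher and 5.05% lower. ACO1 differed by 1.43, or 2.69-fold (SE 0.37, 95% interval 0.61 to 2.25, adjusted P = 0.285), by 1.9, 0.86 and 1.52 on the 3 slides. Its call was kept in all 9 fits that left out 1 array, and the value was 0.92 with array brightness as a covariate. FTL differed by 0.61, or 1.53-fold (SE 0.21, 95% interval 0.14 to 1.08, adjusted P = 0.38), and by 0.97 and 1.54 on its other probes. The FTL call was lost without GATA3 knockdown replicate 2 or HIF-1α knockdown replicate 1, at 0.55 in both. With the slide block, TFRC and CP were called as well, CP lower after GATA3 knockdown (-0.91), which made 6 of 10.

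Of the 9 genes with a reading on every array, 1 did not overlap between GATA3 knockdown and si-Control (6.03% over all genes with 3 readings a group), 3 between HIF-1α knockdown and si-Control (13.3%) and 5 between the knockdowns (22.8%). The median difference of the 10 genes was 0.24 after GATA3 knockdown, -0.09 after HIF-1α knockdown and 0.34 between the knockdowns, beside -0.02, -0.01 and 0 over all genes. The knockdowns share their si-Control arrays, so the first 2 comparisons are not independent of each other.

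**Figure D5:**
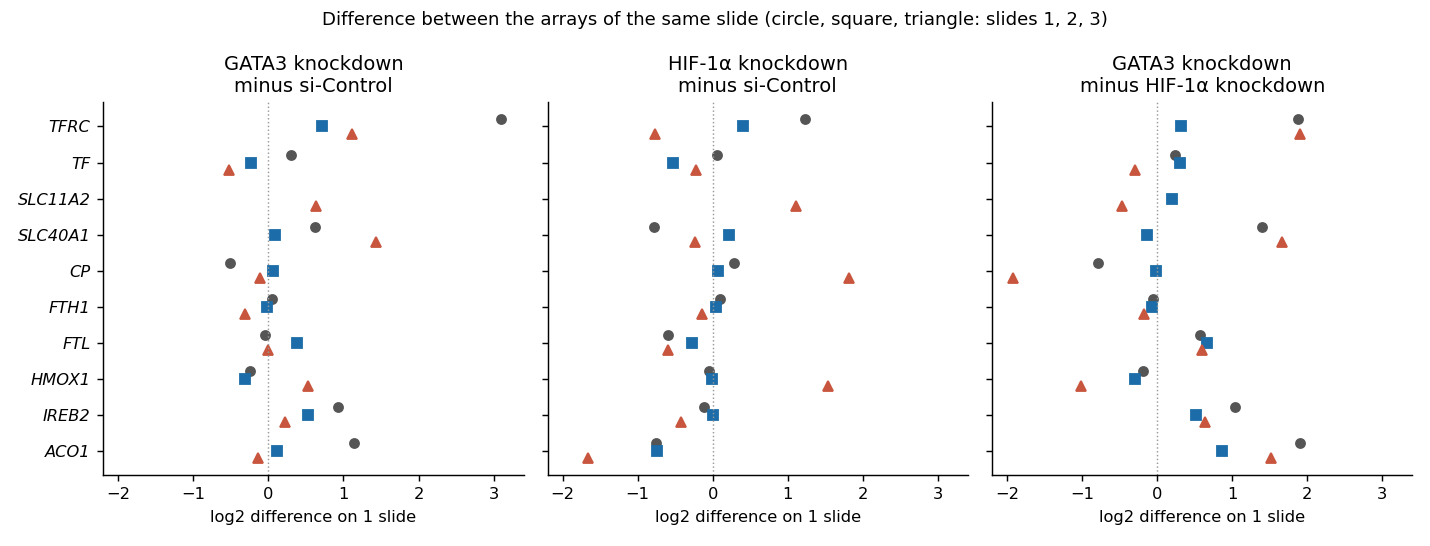
Log2 difference between the arrays of the same slide (horizontal axes) for the 10 genes in the 3 comparisons; circles, squares and triangles are slides 1, 2 and 3, and a missing symbol is a spot marked non-uniform. FTL and ACO1 lie below 0 on all 3 slides after HIF-1α knockdown and above 0 on all 3 between the knockdowns, and TFRC spreads from 0.72 to 3.1 after GATA3 knockdown.

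The genes whose readings ran most like those of TFRC over the 9 arrays, among 15912 named genes well above background on all of them, were ACVR1 (Pearson's r = 0.992), INTS6 (0.991) and CHD1 (0.987). For ACO1, they were UBE2O, P4HA1 and DPCD, each at 0.995. These arrays share slide and brightness as well as group, and the values describe likeness only.

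Other genes of iron and heme were counted in the same way. Over all genes, 1.59% were called higher and 1.38% lower after GATA3 knockdown, and 1.95% and 3.28% after HIF-1α knockdown. Between the knockdowns the shares were 6.93% and 5.05%, and these shares stand beside every list that follows. Of 13 genes of iron import and trafficking, 1 rose and 2 fell after GATA3 knockdown. SLC39A14, a zinc transporter that also carries iron not bound to transferrin, rose by 1.2 (SE 0.47), LTF (lactoferrin), well above background on only 7 of the 9 arrays, fell by 0.79 (SE 0.28) and STEAP4, a metalloreductase, fell by 0.78 (SE 0.26), each with an adjusted P of 1. After HIF-1α knockdown, STEAP4 moved the other way, rising by 0.92 (SE 0.26, adjusted P = 0.792), and the knockdowns differed in STEAP4 by -1.7 (SE 0.26, adjusted P = 0.133). Between the knockdowns, LTF was also lower in GATA3 knockdown (-0.74, adjusted P = 0.387) and SLC39A14 was higher (1.49, adjusted P = 0.352). TFR2, the second transferrin receptor, fell by 0.82 after HIF-1α knockdown (SE 0.28, adjusted P = 0.823), beside -0.27 after GATA3 knockdown, which was not called. None of 7 iron regulators such as HAMP and FBXL5 was called in any comparison.

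Of 13 genes of mitochondrial iron and iron-sulfur clusters, none was called after GATA3 knockdown and 1 after HIF-1α knockdown, where ISCA1, an assembly factor, fell by 0.91 (SE 0.39, adjusted P = 0.823). Between the knockdowns, ISCA1 was higher with GATA3 siRNA by 1.65 (SE 0.39, adjusted P = 0.259). Of 9 genes of heme synthesis, ALAS1, the first and rate-limiting enzyme, rose by 1.05 after GATA3 knockdown (SE 0.44, adjusted P = 1), and UROD, which acts in the middle of the pathway, fell by 0.86 after HIF-1α knockdown (SE 0.26, adjusted P = 0.823). Between the knockdowns, UROD was higher in GATA3 knockdown by 0.94 (adjusted P = 0.318), and PPOX and FECH, the last enzymes of the pathway, were lower, at -0.76 (adjusted P = 0.387) and -0.69 (adjusted P = 0.416, with FECH dropped on arrays where its spot was non-uniform). Of 10 genes of heme breakdown and transport, only BLVRA, a biliverdin reductase, was called, rising by 0.64 after HIF-1α knockdown (SE 0.27, adjusted P = 0.823).

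Genes outside iron handling give a scale for these values. Of 15 HIF-1 target genes on the array, 11 fell after HIF-1α knockdown, beside 3.28% of all genes called lower. The median of the 15 was -0.99, with BNIP3 at -2.18 (SE 0.28, adjusted P = 0.221). After GATA3 knockdown 1, EGLN3, fell by 1.12 (SE 0.41, adjusted P = 1), beside 1.38% of all genes called lower. Of 10 NRF2 targets, none was called in either knockdown against si-Control. Called or not, 9 were higher after GATA3 knockdown (median 0.37) and 7 lower after HIF-1α knockdown (median -0.33), beside medians of -0.02 and -0.01 over all genes. Between the knockdowns 9 were higher with GATA3 siRNA (median 0.59, beside 0 over all genes). Only GCLC was called there, higher by 0.84 in the GATA3 knockdown arrays than in the HIF-1α knockdown arrays (SE 0.34, adjusted P = 0.398). NRF2 is a known inducer of HMOX1, FTL and FTH1. After HIF-1α knockdown, these differed by 0.5, -0.5 and 0, with only FTL called. Any part of NRF2 in these values was not tested.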

How the data were processed

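Total RNA of 9 OEC-M1 samples was measured on Agilent 8×60K arrays with 1 dye. The authors deposited 1 scanner file per array (Agilent Feature Extraction 10.5.1.1 in the submitters' processing notes) holding, for every spot, the median intensity and the median background intensity, on a linear scale and not normalized between arrays. They also deposited a table of log2 values, which match the log2 processed signal less a constant that sets each array's 75th percentile to 0 (99.3% of values within 0.001).

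The median intensity was corrected with normexp (offset 50), non-uniform spots were set to missing, control spots were left out, and arrays were quantile normalized (R 4.3.3, limma 3.58.1). The design named the mean signal, and the files hold the median. Repeated spots were averaged by probe, and a gene was represented by its brightest probe over all arrays in the fits over all genes, while values for other probes come from the same fit over all probes. All 3 groups entered 1 fit (lmFit, eBayes), called at an unadjusted two-sided P of 0.05, with Benjamini-Hochberg adjustment beside it. Accessions were matched to RefSeq symbols for 31104 of 58201 probes. The ratio of ferritin chains, which the design did not name, was tested by exact permutation.

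Genes named outside the list of 10 are the targeted genes, up to 3 called genes of each related list per direction and comparison, and the 3 genes most like the gene with the smallest P. The 10 genes and all lists were chosen with earlier results of these data known. Same-numbered arrays share a slide in the headers, and their deviations from the group means correlated between -0.19 and 0.72. With 3 arrays per group, precision is limited by their number.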

Additional observations from a re-analysis of the deposited data

How the results depend on the processing

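Precision is limited by 3 arrays per group, and no iron gene passed adjustment. Over 11 other settings, ACO1 kept its call after HIF-1α knockdown in all, and ACO1, FTL and IREB2 kept theirs between the knockdowns in all. TFRC after GATA3 knockdown kept its call in 7 and FTL after HIF-1α knockdown in 8. The cause was not tested where a value changed, except that leaving out arrays also lowers the degrees of freedom.

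For GATA3 knockdown, 1418 genes and 1 iron gene were called. These became 3050 and 0 with the processed signal, 2889 and 0 with the authors' log2 table, 928 and 0 in a fit of the 6 arrays compared, and 4834 and 3 with array brightness as a covariate, which was chosen after seeing the data. With the replicate block (the slide), they were 2381 and 2. For HIF-1α knockdown, 2478 genes and 2 iron genes were called, and with the replicate block 3983 and 2. A normexp offset of 0, the filter on dim probes and the fit of 6 arrays each left 1 iron gene, ACO1. Between the knockdowns, 5675 genes and 4 iron genes were called, with the replicate block 8876 and 6, and in the fit of 6 arrays 8630 genes. At an adjusted P of 0.05, 0, 0 and 2 genes and 0 iron genes were called. Of the calls over all genes, 53.5% were higher after GATA3 knockdown and 37.3% after HIF-1α knockdown. The share was 78% and 53.1% with the processed signal, 76% and 52.2% with the authors' table, and 69.6% and 35.2% with 75th percentile scaling after normexp. With the brightness covariate it was 55.1% and 58.4%. Between the knockdowns that scaling raised it from 57.8% to 69.1% and the median of all genes to 0.15.

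Leaving out 1 array at a time, the genes called ran from 953 to 6006, from 1412 to 4798 and from 2693 to 9702 in the 3 comparisons, and the iron genes from 0 to 3, from 0 to 2 and from 1 to 6. Differences that were not called changed sign. After GATA3 knockdown, TF ran from -0.62 to 0.18, HMOX1 from -0.62 to 0.34 and CP from -0.72 to 0.31. After HIF-1α knockdown, TFRC ran from -0.56 to 1.03, TF from -0.62 to 0.02, FTH1 from -0.06 to 0.04, HMOX1 from -0.12 to 0.81 and IREB2 from -0.36 to 0. Between the knockdowns, TF ran from -0.39 to 0.47 and SLC11A2 from -0.32 to 0.16.

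Other settings also turned uncalled differences. After GATA3 knockdown, SLC11A2 was -0.03 in the authors' table, FTH1 was 0.03 with the processed signal, 0.01 in the authors' table and 0.01 with 75th percentile scaling after normexp, and HMOX1 was 0.05, 0.03 and 0.06 in these and 0.02 with the brightness covariate. After HIF-1α knockdown, FTH1 was 0.06 as the mean of its probes, and with the brightness covariate FTH1 was 0.02, HMOX1 -0.09 and IREB2 0.06. Between the knockdowns, TF was -0.49 with the processed signal and -0.51 in the authors' table, FTH1 was 0.5, 0.48 and 0.51 with these and the 75th percentile scaling, HMOX1 was 0.11 and SLC11A2 0.03 with the brightness covariate, and SLC11A2 was 0.87 as the mean of its probes, which differ between arrays where a spot is missing.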
